A study of Mus musculus with 6 samples.

Results

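The *Hox* genes encode homeodomain transcription factors and lie in the mouse genome in 4 clusters, *Hoxa*, *Hoxb*, *Hoxc* and *Hoxd*. All gene names made of *Hox*, a cluster letter from a to d and a number were taken from the count tables, which gave 39 genes of the 53657 gene names counted. The *Hoxa* cluster held 11 of them, *Hoxb* 10, *Hoxc* 9 and *Hoxd* 9. RNA-seq was performed on undifferentiated spermatogonia (Aundiff) of 3 WT and 3 MUT mice. Aundiff are the mitotic germ cells of the adult testis that include the spermatogonial stem cells. The cells were sorted as tdTomato-positive and MCAM-bright 3 months after tamoxifen, so each group was measured once, at a single time point.

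All 6 mice were adult males on a mixed background and carried the *Gfra1-creERT2* driver and a tdTomato reporter at the *Rosa26* locus, and all had received tamoxifen. The driver is active in Aundiff, and the label is inherited by all their progeny. WT mice lacked the *FR-Hras* G12V fl allele. MUT mice carried 1 copy of it, so that recombination brought the mutated *Hras* in place of a normal allele, under the control of the endogenous promoter. The share of the sorted MUT cells that had recombined is not analysed here. HRAS is a small GTPase that relays growth factor signals, and the mutated form stays in its active state. The comparison asked whether the constitutively active form left a mark on the transcriptome of the sorted cells, and it is read here for the *Hox* genes.

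In the embryo, *Hox* genes tell cells where they lie along the head-to-tail axis. The genes at the 3′ end of a cluster, with low numbers, act towards the head, and those at the 5′ end, with high numbers, act towards the tail, in the limbs and in the genital tract. Genes of the same number in different clusters are paralogs. Polycomb complexes hold the clusters silent where the genes are not used, and trithorax (MLL) complexes keep them active where they are. In adults, mesenchymal cells such as fibroblasts retain a *Hox* pattern that reflects the site in the body they come from, and germ line cells are known to carry Polycomb marks over the clusters.

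In GRCm38 the *Hoxa* genes span chr6:52155590-52260880 on the minus strand. The *Hoxb* genes span chr11:96194316-96368256, the *Hoxc* genes chr15:102921103-103036852 and the *Hoxd* genes chr2:74668310-74765142, all 3 on the plus strand. The annotated genes of a cluster run into each other. Exons of 16 of the 39 *Hox* genes shared bases with another gene, and fragments that mapped to several genes were left out of the counts. The shared part was above 50% of the exon length for *Hoxd3* (62.8%), *Hoxb3* (52.9%, all under the antisense transcript *Hoxb3os*) and *Hoxd4* (52.3%). Levels per exon length of all 16 are lower limits, since the full exon length was used. The other 23 genes shared none.

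The libraries held between 22729292 and 23550433 counts, and 3 counts, the least that is called above 0 here, correspond to between 0.127 and 0.132 CPM (counts scaled to a common library size). Replicates of a group differed by more than sampling noise (chi-square per degree of freedom between 4.67 and 27.6), with the largest values in the pairs that include WT replicate 3. The germ line identity of the samples was checked by markers. All 10 markers of Aundiff were well above the floor, with *Dazl* at 305 and *Mcam* at 187 RPKM (CPM per kilobase of exon) on average. MCAM was the antigen of the sort and is also found in somatic cells, so *Mcam* is not an independent check. Markers of other cells were present too. Summed over the list, CPM ranged over the WT and then the MUT samples from 607 to 672 and from 697 to 846 for differentiating spermatogonia, and from 1195 to 1892 and from 959 to 1480 for spermatocytes and spermatids. They ranged from 503 to 731 and from 420 to 559 for macrophages, from 76.8 to 327 and from 26.1 to 88.7 for B and plasma cells, and from 260 to 395 and from 317 to 394 for stromal fibroblasts. The sums of the Sertoli cell, Leydig cell, peritubular myoid and endothelial lists were at most 67.5 CPM in any sample, with the Leydig sum at 67.3 CPM in MUT replicate 3 and at most 21.1 CPM elsewhere. No marker of these lists was at 0 in every sample.

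*Hox* transcripts were rare in the sorted cells. Values of single samples are given in the order of the replicate numbers throughout. All 39 genes together took 2258, 1666 and 2444 counts in the WT mice and 2327, 2075 and 2227 counts in the MUT mice, between 0.00707% and 0.0108% of a library. The median *Hox* gene had 0.498 RPKM, averaged over the 6 samples, against a median of 3.90 RPKM over the 19656 genes that passed the expression filter. A single *Hox* gene, *Hoxc4*, lay above that median. Above 1 RPKM in every sample were 10 *Hox* genes of 39, whereas 68.2% of the genes that passed the filter met this mark. The sets differ, since the 39 include 8 *Hox* genes that did not pass the filter. The 10 genes are all among the 31 that did.

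**Figure D1:**
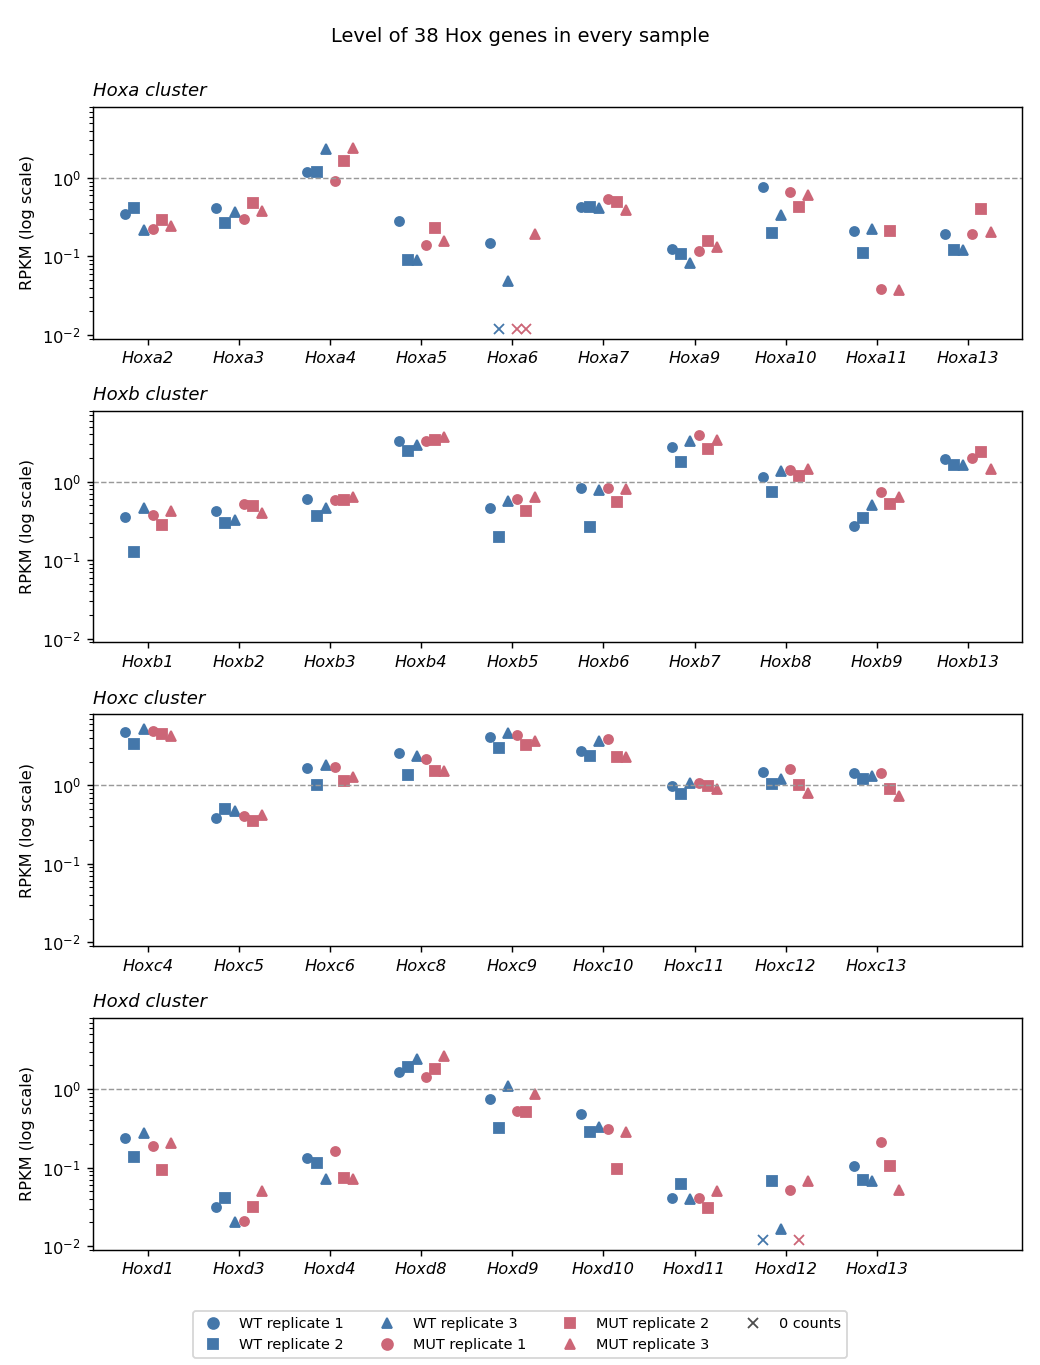
RPKM (CPM per kilobase of exon, log scale) of 38 *Hox* genes in the 6 samples, 1 panel per cluster and genes in order of their number. Blue marks are WT, red marks are MUT, the shape gives the replicate, crosses mark samples with 0 counts, and the dashed line is at 1 RPKM. The *Hoxc* genes from *Hoxc6* to *Hoxc13* lie near or above the line, and most *Hoxd* genes lie far below it.

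The highest level was that of *Hoxc4*, on the plus strand of chromosome 15 from 103018934 to 103036852. It had 12.5, 8.67 and 13.3 CPM in WT and 12.5, 11.6 and 10.9 CPM in MUT. Per exon length this was 4.47 ± 0.955 RPKM in WT and 4.55 ± 0.305 RPKM in MUT (SD, n = 3 each). WT replicate 2 was the lowest of the 6 and the groups overlapped. *Hoxc9*, which sets thoracic identity in the embryo, followed with 10.1, 7.35 and 11.2 CPM in WT and 10.6, 8.02 and 8.85 CPM in MUT. Its level was 3.93 ± 0.821 RPKM in WT and 3.77 ± 0.536 RPKM in MUT (SD, n = 3 each), and its range in each group overlapped that of *Hoxc4*.

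*Hoxb4*, a factor known for its use in expanding blood stem cells, came next. It lies at chr11:96318267-96321638 on the plus strand and shares no exon base with another gene. It had 8.57, 6.37 and 7.44 CPM in WT and 8.48, 8.80 and 9.49 CPM in MUT, or 2.91 ± 0.428 RPKM and 3.48 ± 0.201 RPKM (SD, n = 3 each). The lowest MUT sample lay just under the highest WT sample. *Hoxb7* had 4.24, 2.74 and 5.11 CPM in WT and 6.08, 4.08 and 5.26 CPM in MUT, or 2.61 ± 0.779 RPKM and 3.33 ± 0.651 RPKM. WT replicate 2 was again the lowest sample of both *Hoxb* genes.

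*Hox* promoters are typically rich in CG dinucleotides, the sites of DNA methylation and the places where Polycomb proteins gather. A RefSeq start site on GRCm38.p6 was found for 22 of the 39 genes, with 24 windows in all, and of the 4 genes with the highest levels *Hoxc4* and *Hoxb4* have one. Their sequences are printed to show the CG content of the strongest members. The 250 bases before the start site are given 5′ to 3′ on the plus strand, with CG dinucleotides in capitals. The *Hoxb4* window is chr11:96318017-96318266 and ends where the counted gene begins. The *Hoxc4* window is chr15:103034145-103034394 and lies inside the gene as counted, which includes an earlier start.

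Hoxb4: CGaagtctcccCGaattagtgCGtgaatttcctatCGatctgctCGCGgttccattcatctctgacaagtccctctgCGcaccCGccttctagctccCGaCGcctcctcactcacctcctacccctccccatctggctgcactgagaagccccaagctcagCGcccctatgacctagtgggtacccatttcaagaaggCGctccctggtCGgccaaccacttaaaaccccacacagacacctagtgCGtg
Hoxc4: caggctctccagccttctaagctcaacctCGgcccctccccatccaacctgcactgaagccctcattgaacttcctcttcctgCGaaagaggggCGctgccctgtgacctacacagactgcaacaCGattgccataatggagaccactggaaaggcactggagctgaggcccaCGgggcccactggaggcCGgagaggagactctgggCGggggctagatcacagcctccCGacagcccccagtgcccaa

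The *Hoxb4* window holds 14 CG and the *Hoxc4* window 8. The median over the 24 *Hox* windows was 12.5, with a range from 2 to 35, against a median of 6 over 32851 windows of the same length before all RefSeq start sites. Above that median were 19 of the 24. The window with 35 CG belongs to *Hoxa13*, which had a mean of 0.207 RPKM. The letters TATAAA, read on either strand, occur in neither printed window, in 4 of the 24 *Hox* windows and in 12.4% of all windows.

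The *Hoxc* cluster supplied the largest share of *Hox* RNA. Its genes made up 46.6 ± 4.32% (SD, n = 6) of the summed *Hox* RPKM, *Hoxb* 30.8 ± 2.94%, *Hoxa* 13.8 ± 2.28% and *Hoxd* 8.81 ± 1.53%. Of the 9 *Hoxc* genes 5 were above 1 RPKM in every sample, against 3 of 10 in *Hoxb*, 1 of 11 in *Hoxa* and 1 of 9 in *Hoxd*. The 10 genes with the highest means held between 64.5% and 67.9% of the summed RPKM of a sample.

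The other *Hoxc* genes of this leading set were *Hoxc10* and *Hoxc8*, which act in the lumbar and brachial to thoracic spinal cord of the embryo. *Hoxc10* had 5.24, 4.57 and 7.10 CPM in WT and 7.39, 4.34 and 4.40 CPM in MUT, a mean of 2.88 RPKM over the 6 samples. *Hoxc8* had 7.30, 3.80 and 6.72 CPM in WT and 6.21, 4.34 and 4.28 CPM in MUT, a mean of 1.92 RPKM. In both genes the spread within each group was wider than the distance between the group means. Divided by its unshared exon bases alone, *Hoxc10* had 3.16 RPKM, above *Hoxb7* at 2.97 RPKM. *Hoxc6*, at 1.44 RPKM, was the first gene outside the leading 10. *Hoxc12* (1.19 RPKM), *Hoxc13* (1.17 RPKM, a gene of hair and nail formation) and *Hoxc11* (0.960 RPKM) came close behind. *Hoxc5*, numbered between *Hoxc4* and *Hoxc6*, which were both higher, had 0.420 RPKM.

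In the *Hoxb* cluster the posterior outlier *Hoxb13*, known from the prostate and the tail end of the body, reached the leading set. It had 4.33, 3.55 and 3.63 CPM in WT and 4.46, 5.20 and 3.21 CPM in MUT, a mean of 1.84 RPKM. MUT replicates 2 and 3 were the highest and the lowest of the 6 samples. The remaining *Hoxb* genes lay between 0.337 RPKM (*Hoxb1*) and 1.22 RPKM (*Hoxb8*).

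Of the *Hoxa* cluster, *Hoxa4* belonged to the leading 10. This gene, which is known to be transcribed in male germ cells that have entered meiosis, had 1.88, 1.92 and 3.68 CPM in WT and 1.44, 2.60 and 3.89 CPM in MUT, a mean of 1.61 RPKM. Both replicates numbered 3 stood above the other 4 samples. The same pair held the highest values of *Hoxd8*, *Hoxd9* and *Hoxb1*. With *Hoxa4* these made 4 of the 31 *Hox* genes that passed the expression filter, a share below the 15.8% of all genes that passed. The sum of the 8 markers of spermatocytes and spermatids was 1892 CPM in WT replicate 3 and 1480 CPM in MUT replicate 3. WT replicate 1 was close to the latter at 1463 CPM. WT replicate 3 was the highest sample for 7 of the 8 markers and MUT replicate 3 for 1. That 1 marker was the acrosome gene *Acrv1*, with 166, 223 and 351 counts in WT and 120, 150 and 358 counts in MUT. The part of late germ cells in the levels of these *Hox* genes was not tested.

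*Hoxd8* was the only member of the *Hoxd* cluster in the leading 10. It had 4.59, 5.17 and 6.63 CPM in WT and 3.93, 4.99 and 7.14 CPM in MUT, a mean of 1.97 RPKM and the sixth rank of all *Hox* genes. Its neighbour *Hoxd9* followed at 0.674 RPKM and *Hoxd10* at 0.297 RPKM. The 5′ members *Hoxd11*, *Hoxd12* and *Hoxd13*, which pattern digits and external genitalia, had 26, 12 and 35 counts over all 6 samples.

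Genes in the middle of the clusters held the largest share of the RNA. Genes with numbers 1 to 3 held 9.35% of the summed RPKM on average (range 8.17% to 11.1%), those with numbers 4 to 8 held 53.7% (51.5% to 58.3%) and those with numbers 9 to 13 held 36.9% (31.8% to 39.9%). Adjacent genes could differ widely, as *Hoxc4* at 4.51 RPKM and *Hoxc5* at 0.420 RPKM. Low counts set the limit at the other end. *Hoxa5*, *Hoxa6*, *Hoxd1*, *Hoxd3*, *Hoxd4*, *Hoxd11*, *Hoxd12* and *Hoxd13* did not pass the filter and were not tested between groups. *Hoxa6*, with 8 counts in all, and *Hoxd12* were at 0 in some samples, and 33 of the 39 genes had more than 3 counts in every sample.

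The summed *Hox* level varied from sample to sample in a way the genotype did not follow. It was 98.7, 71.2 and 103 CPM in WT and 102, 90.0 and 95.2 CPM in MUT. WT replicate 2 stood apart at the low end. It was the lowest sample for 17 of the 31 tested *Hox* genes (54.8%), whereas it was the lowest for 10.7% of all tested genes. By cluster this held for 8 of 10 *Hoxb* genes, 5 of 9 *Hoxc* genes, 3 of 9 *Hoxa* genes and 1 of 3 *Hoxd* genes.

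The summed level of stromal fibroblast markers showed the same order. Their sum over 7 genes was 376, 260 and 395 CPM in WT and 394, 317 and 337 CPM in MUT. Ranked from low to high, the 6 samples came in the identical order for the *Hox* sum and for this sum, and of the 10 marker lists this was the only one with that order. The order is that of the sum. WT replicate 2 was the lowest sample for 3 of the 7 markers, and WT replicate 3 the highest for 5. The proteoglycan gene *Dcn* had 3445, 2273 and 4416 counts in WT and 3609, 2660 and 2968 counts in MUT. This is by itself the order of the sum, and the other markers are not shown singly. How far the sum and the ratios below rest on *Dcn* was not tested. All 7 markers were detected in every sample. Per 100 CPM of stromal markers the *Hox* sum was 26.2, 27.3 and 26.1 CPM in WT and 25.8, 28.4 and 28.3 CPM in MUT. The highest sample was 1.10 times the lowest on this scale and 1.45 times on the CPM scale. By cluster, the ratio per stromal CPM and in CPM was 1.32 and 1.71 for *Hoxb*, and 1.18 and 1.49 for *Hoxc*. For *Hoxa* it was 1.66 and 1.58, and for *Hoxd* 1.71 and 1.51, so the spread of these clusters became wider. The order was noticed after the values were seen, and the part of stromal cells in the *Hox* level was not tested. In sorted bulk RNA, fewer cells of a type and less RNA per cell cannot be told apart.

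**Figure D2:**
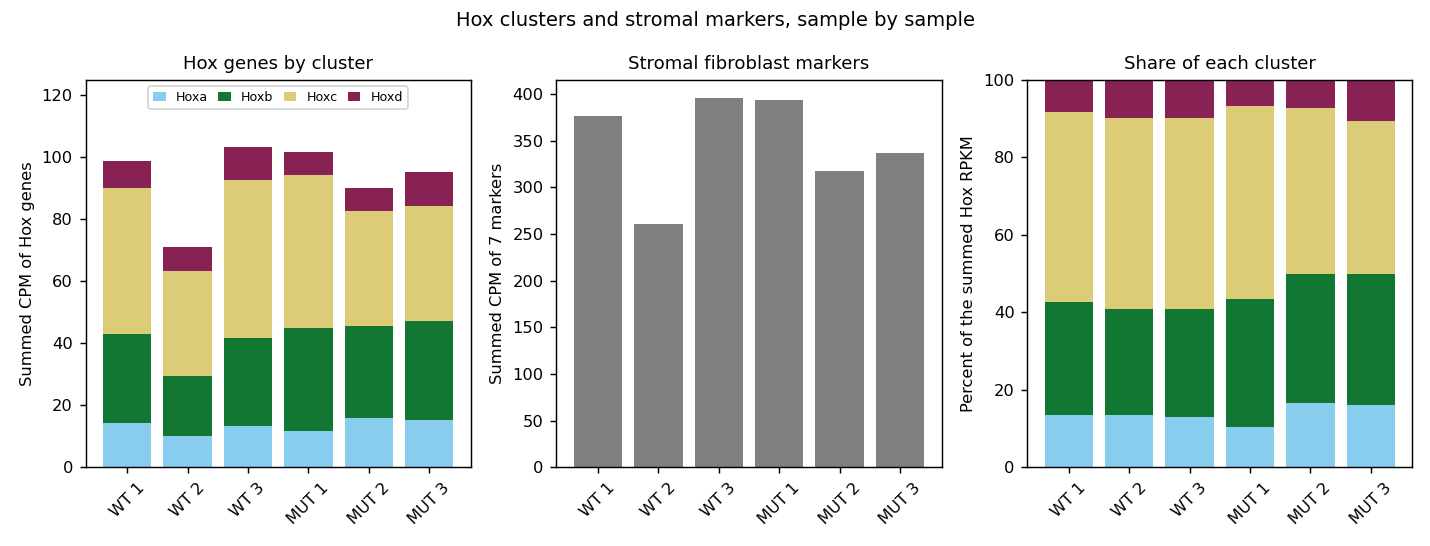
Summed CPM of the *Hox* genes stacked by cluster (left), summed CPM of 7 stromal fibroblast markers (middle) and the percentage of the summed *Hox* RPKM that each cluster holds (right), 1 bar per sample. WT replicate 2 has the lowest bar in the left and middle panels (71.2 and 260 CPM), and the green *Hoxb* share is 27.3% to 29.3% in WT and 33.2% to 33.8% in MUT.

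MUT was compared with WT by edgeR's quasi-likelihood test on all 19656 genes that passed the filter, with calls at a false discovery rate (FDR) under 0.1. None of the 31 *Hox* genes in the test passed, with a lowest adjusted p of 0.998. DESeq2 and limma voom called none either. Over all tested genes 2 passed, or 0.0102%. An unadjusted p under 0.05 was reached by 1 *Hox* gene in edgeR, by 0 in DESeq2 and by 1 in limma voom, and by 547 genes or 2.78% of all genes tested in edgeR. In edgeR, markers of other cells and of Aundiff reached it too. With MUT above WT these were 1 Aundiff, 2 differentiating spermatogonia and 1 Sertoli cell marker. With MUT below WT they were 1 spermatocyte and spermatid marker and 4 B and plasma cell markers. None of them was called at an FDR under 0.1. With 3 samples against 3, an exact permutation test of a single gene cannot go below p = 0.1, which is above 0.05.

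The gene with the unadjusted p under 0.05 was *Hoxb9*, a gene of the thoracic region. It had 0.699, 0.897 and 1.31 CPM in WT (16, 21 and 31 counts) and 1.92, 1.34 and 1.62 CPM in MUT (44, 31 and 38 counts). WT replicate 3 and MUT replicate 2 both had 31 counts, and the groups were apart on the TMM scale alone. By library totals the same samples were at 1.36 and 1.33 CPM, so that the groups overlapped. MUT was 1.68-fold above WT (log2 fold change 0.75, standard error 0.29, unadjusted p = 0.0323 and adjusted p = 0.998 in edgeR). DESeq2 gave an unadjusted p of 0.0692 for it.

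*Hoxa13*, which patterns digits and the genital tract, had the largest positive difference. It had 11, 7 and 7 counts in WT and 11, 23 and 12 counts in MUT. The groups touched rather than separated, since WT replicate 1 and MUT replicate 1 both had 11 counts and 0.481 CPM. The log2 fold change reached 0.88 with a standard error of 0.42 (adjusted p = 0.998 in edgeR), and it was 0.45 without MUT replicate 2. Counted with no overlap on the normalized scale, *Hoxb9* and *Hoxa13* made 2 of 31 *Hox* genes with MUT above WT, beside 4.69% of all tested genes. By library totals 0 of 31 did, beside 3.69% of all tested genes. No *Hox* gene had MUT below WT with no overlap on the TMM scale. The share over all tested genes in that direction is not given here, so this count is not read as a trait of the *Hox* genes.

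The largest negative differences were those of *Hoxa11*, a gene of the forearm, lower leg and uterus, and *Hoxd10*, a gene of the hind limb. *Hoxa11* had 11, 6 and 12 counts in WT and 2, 11 and 2 counts in MUT. Its log2 fold change of -0.92 (standard error 0.65) rested on 2 MUT samples with 2 counts each and spanned -0.54 to -2.21 when a sample was left out, the latter without MUT replicate 2. *Hoxd10* had 20, 12 and 14 counts in WT and 13, 4 and 12 counts in MUT, a log2 fold change of -0.65 (standard error 0.45) that became -0.30 without MUT replicate 2. The adjusted p was 0.998 for both in edgeR, and in both genes the groups overlapped.

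**Figure D3:**
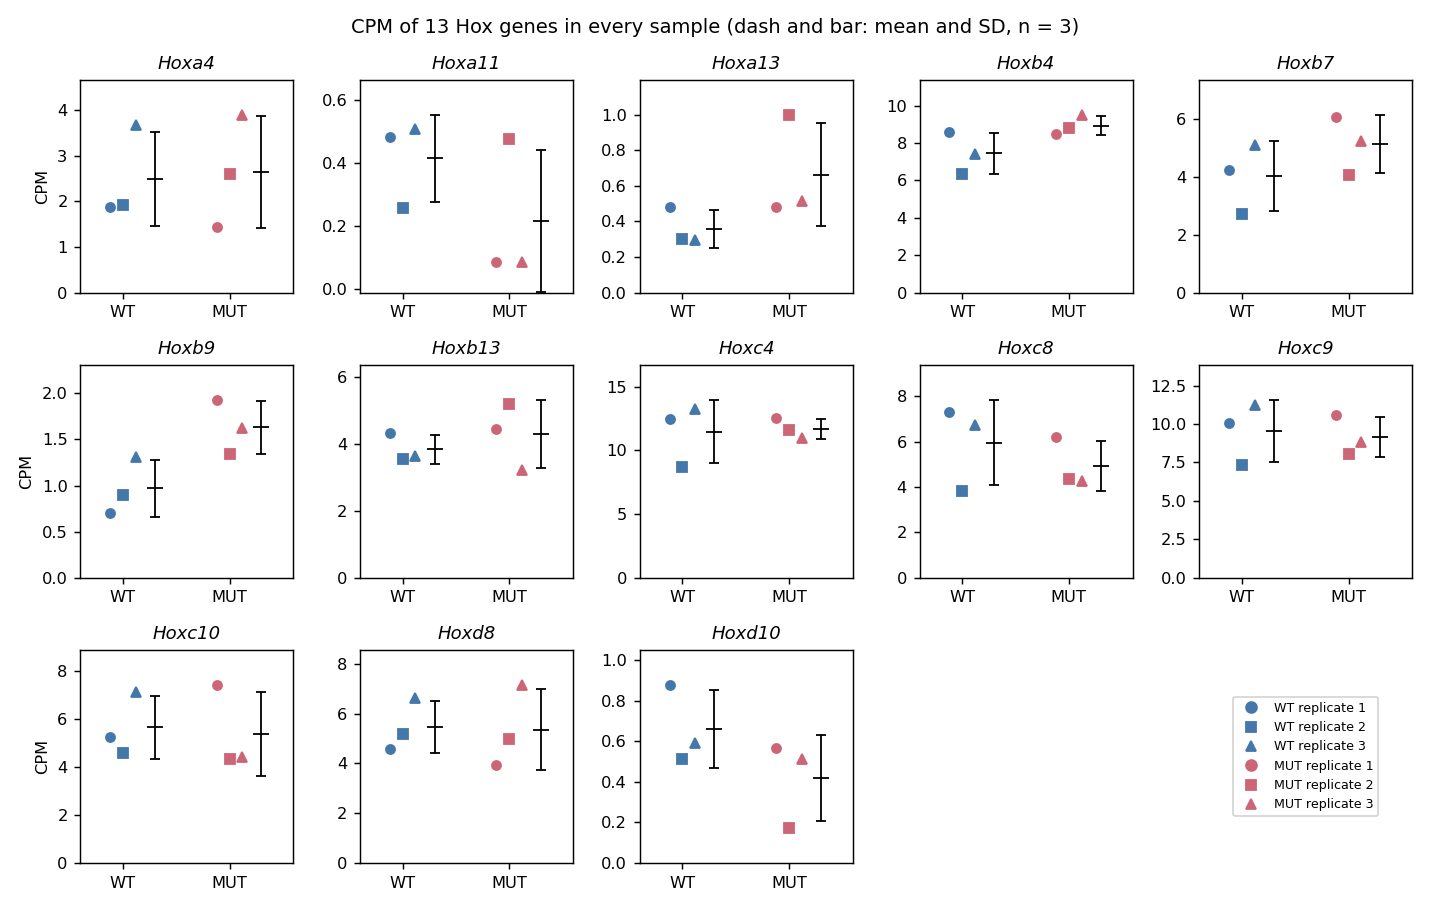
CPM of 13 *Hox* genes in the 6 samples, among them 9 of the 10 with the highest mean RPKM and those with the largest differences in either direction or with an unadjusted p under 0.05, each panel with its own linear axis. Points are samples (blue WT, red MUT, shape for the replicate), and the dash with bar is the mean and SD of 3 samples. The groups overlap or, in *Hoxb9* and *Hoxa13*, meet at samples with equal counts (31 and 11).

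The genes above were picked for the size of their difference or for their unadjusted p. Smaller differences in the leading set follow from that choice. Log2 fold changes with standard errors were 0.026 ± 0.17 for *Hoxc4*, -0.062 ± 0.19 for *Hoxc9*, 0.26 ± 0.15 for *Hoxb4*, 0.35 ± 0.26 for *Hoxb7* and -0.070 ± 0.26 for *Hoxc10*. They were -0.030 ± 0.25 for *Hoxd8*, -0.27 ± 0.27 for *Hoxc8*, 0.16 ± 0.21 for *Hoxb13* and 0.085 ± 0.39 for *Hoxa4*. None of these 9 had an unadjusted p under 0.05 in edgeR. For 20 of the 31 tested *Hox* genes the 95% confidence interval of the log2 fold change lay between -1 and 1, a change of less than 2-fold in either direction, as it did for 81.6% of all tested genes. For the other 11 genes, a 2-fold difference was not outside the interval at this depth.

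**Figure D4:**
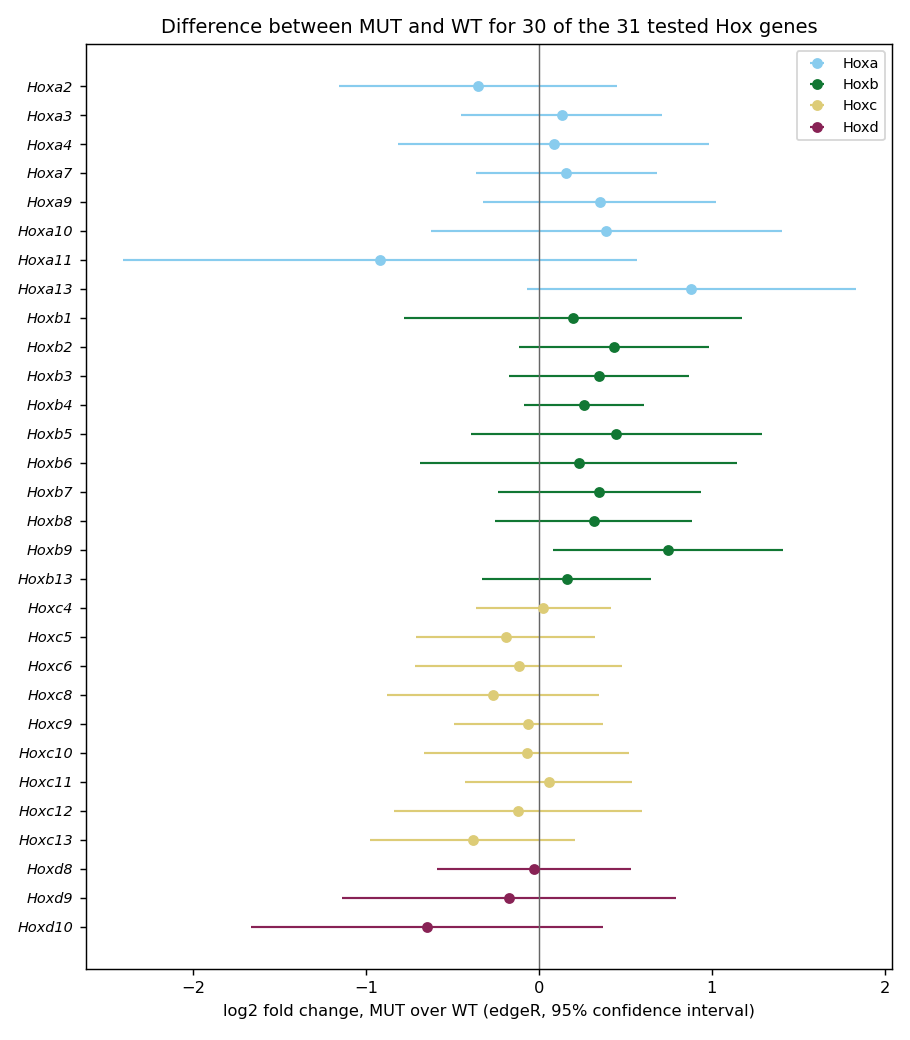
Log2 fold change of MUT over WT for 30 of the 31 tested *Hox* genes, by cluster and number, with 95% confidence intervals from edgeR. All intervals except that of *Hoxb9* include 0, all 10 *Hoxb* points lie to the right of 0, and 7 of 9 *Hoxc* points and all 3 *Hoxd* points lie to the left.

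The clusters leaned in different directions. All 10 *Hoxb* genes had positive log2 fold changes, from 0.16 to 0.75 with a median of 0.33. Of the 9 *Hoxc* genes 7 were negative (median -0.12), as were all 3 tested *Hoxd* genes (median -0.17), and 7 of 9 *Hoxa* genes were positive (median 0.16). Over the 31 genes the median was 0.13 with 19 positive (61.3%), beside a median of 0.0066 and 51.8% positive over all tested genes. Genes of a cluster share samples and neighbours and are not independent, and these counts were chosen after the values were seen. Without WT replicate 2 the *Hox* median was -0.079 with 13 positive, 8 of 10 *Hoxb* genes stayed positive, and all 9 *Hoxc* genes were negative. Without WT replicate 3, 4 of the 9 *Hoxc* genes were negative.

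In terms of shares, *Hoxb* genes held 29.3%, 27.3% and 28.0% of the summed *Hox* RPKM in WT and 33.2%, 33.3% and 33.8% in MUT. The means were 28.2 ± 0.989% in WT and 33.4 ± 0.366% in MUT (SD, n = 3 each), and the groups did not overlap. The *Hoxc* share was 48.9%, 49.1% and 49.3% in WT and 49.7%, 42.8% and 39.5% in MUT, with MUT replicate 1 above all WT samples. A share rises when other clusters fall, and in CPM the *Hoxb* sum was 28.6, 19.4 and 28.4 in WT and 33.1, 29.6 and 31.9 in MUT. Per 100 CPM of stromal markers it was 7.60, 7.45 and 7.17 CPM in WT and 8.41, 9.34 and 9.48 CPM in MUT. No test is given for these sums, which were read after the values were known. By position, the median log2 fold change was 0.22 for numbers 1 to 3, 0.12 for numbers 4 to 8 and -0.062 for numbers 9 to 13.

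Genes that act on or with *Hox* genes were measured in the same libraries, and which cells they came from was not tested. HOX proteins bind DNA together with TALE homeodomain cofactors, of which all 11 listed passed the filter. *Pbx2* was the highest at 55.2 RPKM, far above the 4.51 RPKM of *Hoxc4*. *Tgif1* had 8.77 ± 0.507 RPKM in WT and 7.83 ± 0.535 RPKM in MUT (SD, n = 3 each), with 1088 counts in WT replicate 1 and 1087 in MUT replicate 1 (adjusted p = 0.998 in edgeR). *Meis1* (0.189 RPKM), *Meis2* (0.119 RPKM), *Meis3* (0.310 RPKM) and *Pknox2* (0.558 RPKM) were at levels like those of the *Hox* genes. Of Polycomb repressive complex 2, which writes the H3K27 methyl mark, *Rbbp7* had 110 RPKM, *Phf1* 39.7 RPKM and the catalytic subunit *Ezh2* 8.01 RPKM. Of complex 1, *Cbx2*, which reads that mark, had 51.9 RPKM and *Phc1* 39.5 RPKM.

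None of the regulator genes passed the test. The 8 lists fixed for cofactors, Polycomb complexes 2 and 1, trithorax complexes with H3K27 demethylases, caudal and related homeobox genes, boundary factors, cluster transcripts and flanking genes had 0 calls in edgeR at an FDR of 0.1 and 0 genes with an unadjusted p under 0.05, and DESeq2 and limma voom called none of them. Median log2 fold changes were -0.034 for the cofactors, -0.0026 for Polycomb complex 2 and 0.015 for complex 1. The trithorax list had 14 of 15 genes positive with a median of 0.085. Its summed level was 4524, 4200 and 3044 CPM in WT and 4192, 4084 and 4126 CPM in MUT. WT replicate 3 was the lowest sample for 11 of the 15, and over all tested genes it was also the most often lowest. Without it, *Kmt2a*, *Kmt2b*, *Kmt2c*, *Kmt2d*, *Hcfc1*, *Ash1l*, *Kdm6b* and *Dot1l* had negative log2 fold changes, from -0.22 (*Kmt2d*) to -0.035 (*Kdm6b*). *Men1* and *Psip1* stayed positive at 0.063 and 0.087, and *Dpy30* became positive at 0.016. The positive lean of the list thus rested in large part on this sample. *Kmt2a*, the MLL methyltransferase known to maintain *Hox* expression, had 10310, 9763 and 5777 counts in WT and 8621, 8747 and 9933 counts in MUT. *Wdr5* (94.3 RPKM) and *Dpy30* (66.1 RPKM), shared subunits of these complexes, were the highest of the list. The boundary factors, with the cohesin genes *Rad21* (113 RPKM) and *Smc3* (72.5 RPKM) on top, had a median of 0.0031.

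The caudal genes, which switch on posterior *Hox* genes in the embryo, were as low as the *Hox* genes themselves. *Cdx1* had 0.472 RPKM, *Cdx2* 0.308 RPKM, and *Cdx4* was at 0 in all 6 samples, which allows up to 0.132 CPM in the shallowest library. *Pdx1*, of the related ParaHox group, was higher at 3.25 RPKM. *Evx1* and *Evx2*, which lie beside the *Hoxa* and *Hoxd* clusters, had no more than 5 counts in any sample.

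Of 18 transcripts and microRNA genes listed inside the clusters, 16 were found by name and 5 passed the filter. *Hoxd3os1*, which runs across *Hoxd8* on the opposite strand without sharing exon bases, had 67, 80 and 127 counts in WT and 58, 70 and 129 counts in MUT (1.32 RPKM), with the replicates numbered 3 on top as in *Hoxd8*. Counting disregarded strand, so unspliced RNA of the one cannot be told apart from the other. *Hotairm1*, at the 3′ end of the *Hoxa* cluster, had between 20 and 27 counts (0.939 RPKM). *Hotair*, a *Hoxc* antisense transcript, had 8, 6 and 11 counts in WT and 13, 12 and 10 counts in MUT. *Hottip*, at the 5′ end of *Hoxa*, had 0 counts in every WT sample and 2, 1 and 1 counts in MUT, all below the floor of 3 counts. *Mir10b*, *Mir196a-2* and *Mir196b* were at 0 in every sample. Mature microRNAs have no poly(A) tail and are not measured by such libraries.

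Levels of the genes that flank the clusters ranged widely. *Hnrnpa1*, beside *Hoxc*, had 138 ± 2.61 RPKM in WT and 143 ± 5.76 RPKM in MUT, and *Mtx2*, beside *Hoxd*, had 21.8 ± 2.71 RPKM and 21.8 ± 0.905 RPKM (SD, n = 3 each). *Calcoco2* (0.187 RPKM), *Skap1* (0.494 RPKM) and *Halr1* (0.711 RPKM) were as low as many *Hox* genes. The median log2 fold change of the 12 flanking genes tested was -0.026, with 4 positive and 8 negative.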

How the data were processed

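RNA-seq libraries (TruSeq Stranded mRNA, paired ends) were made from sorted cells of 3 WT and 3 MUT mice, and groups and replicate numbers come from the sample titles. The values that the authors deposited are unnormalized fragment counts by gene name, made with featureCounts 1.6.2 on exons of GENCODE M17 (GRCm38) without regard to strand, leaving out fragments that mapped to several places or to several genes. The submitters' processing notes name FastQC, STAR, featureCounts and the build GRCm38.p6. The deposited tables also give the exon length of each gene in bases, which was used for RPKM.

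Counts were joined by gene name. In R 4.3.3, edgeR 4.0.16 normalized them by TMM, filterByExpr kept 19656 genes, and the quasi-likelihood test, with genotype alone in the model, was adjusted by Benjamini-Hochberg over these genes at an FDR of 0.1. CPM and RPKM are TMM-normalized. Intervals and the floor of 3 counts cover counting error or the spread of these samples only, since PCR duplicates were not separable. Each sample is 1 mouse. Alternatives were DESeq2 1.42.0, limma voom (3.58.1), DESeq2 size factors, no filter, at least 10 counts in every sample, an FDR of 0.05, other RPKM marks, exon bases not shared with another gene, library totals, each sample left out, and the replicate number as a block. The *Hox* genes, the lists and the alternatives were chosen with earlier results of these data known.

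Samples with the same number deviated together from their group means, with correlations of 0.305, 0.158 and 0.395 for numbers 1, 2 and 3 over 10583 genes above 10 CPM. The pairing comes from the numbers in the titles, and controls were littermates, though not stated for which mice. The paired fit called 13 genes of all, where the fit without the replicate block called 2, and no *Hox* gene in either.

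Named with values were the 10 *Hox* genes with the highest mean RPKM, those with an unadjusted p under 0.05 or groups that did not overlap, the 2 largest differences in each direction, and of each regulator list the 2 highest genes and those with an unadjusted p under 0.05. The marker lists are given as sums, with *Dazl*, *Mcam*, *Dcn* and *Acrv1* as single genes. *Ezh2*, *Kmt2a*, *Acrv1*, the *Meis* genes, *Pknox2*, the low flanking genes, the *Cdx*, *Evx* and cluster transcripts and the genes named only for rank, low counts or gaps were added after their values were seen. Promoter windows are RefSeq's, on GRCm38.p6. The values of 1 *Hox* gene are not reported here, though it is part of the counts and sums. Protein sequences were not used here.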

Additional observations from a re-analysis of the deposited data

How the results depend on the processing

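No *Hox* gene and no gene of the regulator lists was called under any alternative run. The number of *Hox* genes with an unadjusted p under 0.05, 1 in edgeR, was 0 with DESeq2, 0 with the replicate block in DESeq2, and 0 to 2 with a sample left out. The genes called over the whole table, 2 in edgeR, were 9 with DESeq2, 4 with limma voom, 5 without a filter on low counts, 0 with at least 10 counts in every sample, 1 at an FDR of 0.05, 13 with the replicate block in edgeR, 55 with the block in DESeq2, and 0 to 6 with a sample left out. The block changed no call of a *Hox* gene, and the paired edgeR fit gave a *Hox* median of 0.13. That median spanned -0.079 (without WT replicate 2) to 0.17 (without WT replicate 3) with a sample left out, and the cause was not tested. *Hox* genes above 1 RPKM in every sample, 10, were 4 at a mark of 2 RPKM and 15 at 0.5 RPKM.

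Of 179 alternative log2 fold changes of the 14 named *Hox* genes, 165 kept their direction and 14 reversed, all with a sample left out and with adjusted p-values of 0.905 or more. With a sample left out, *Hoxa4* spanned -0.30 to 0.48 (negative without WT replicate 1, WT replicate 2 or MUT replicate 3), *Hoxc4* -0.15 to 0.14 (negative without WT replicate 2 or MUT replicate 1) and *Hoxb13* -0.016 to 0.33 (negative without MUT replicate 2). *Hoxc9* spanned -0.23 to 0.073 (positive without WT replicate 3 or MUT replicate 2), *Hoxc10* -0.37 to 0.13 (positive without WT replicate 3, MUT replicate 2 or MUT replicate 3) and *Hoxd8* -0.29 to 0.14 (positive without WT replicate 3, MUT replicate 1 or MUT replicate 2). The lowest adjusted p of these genes was 0.591, in *Hoxa13* without MUT replicate 3. Counts of *Hoxb* genes above and *Hoxc* genes below WT, added after seeing the data, were 8 to 10 and 4 to 9 with a sample left out. The *Hox* genes with MUT above WT and no overlap, 2 on the TMM scale, were 0 by library totals, an alternative also added after seeing the data. *Hoxa11*, the rarest tested *Hox* gene, had 44 counts over all samples, and counting error was not separated from the spread between mice.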
